A study of Mus musculus with 36 samples.

Results

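Cytosolic ribosomal protein genes encode the protein components of the ribosomes that translate nuclear mRNAs. Members were chosen by name alone: symbols of the form Rpl or Rps followed by a number, together with Rplp0, Rplp1, Rplp2 and Rpsa, leaving out pseudogene names and the Rps6k kinases. Of 36930 entries in the deposited table, 83 carried such a name and 80 had a mean of at least 10 counts over the 36 libraries. The 3 that did not (Rpl3l, Rpl10l and Rpl39l) are paralogues known mainly from striated muscle and testis. Of the 80 members, 48 belong to the large (60S) subunit and 32 to the small (40S) subunit.

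Each ribosome holds ribosomal proteins in fixed proportions on a scaffold of ribosomal RNA, and surplus free proteins are normally degraded. Mammalian ribosomal protein mRNAs are short, stable and abundant, and most begin with a 5′ terminal oligopyrimidine tract (TOP), a cytosine followed by a run of pyrimidines through which the mTORC1 pathway and its RNA-binding effector LARP1 control their translation and stability. In stressed cells the kinases that phosphorylate the initiation factor eIF2 alpha lower general translation (the integrated stress response), and amino acid shortage also lowers mTORC1 activity. Fibroblasts in culture grow rapidly and devote much of their translation to making ribosomes.

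The libraries came from mouse embryonic fibroblasts (MEFs), described in the labels as WT or PERK -/-, and these are called WT and Perk-null here. PERK, encoded by Eif2ak3, is the eIF2 alpha kinase of the endoplasmic reticulum. Cells of each genotype received DMSO (the vehicle), thapsigargin (a blocker of the endoplasmic reticulum calcium pump), BtdCPU (an activator of the eIF2 alpha kinase HRI), halofuginone (an inhibitor of prolyl-tRNA synthetase that activates the eIF2 alpha kinase GCN2), BtdCPU with thapsigargin, or halofuginone with thapsigargin. This gave 12 groups of 3 replicates. The labels give no dose, time, batch or clone, name 1 cell line description for both genotypes, and do not say whether replicates were separate cultures, so p-values measure only the spread between these samples. The questions the design poses for these genes are what each compound did to them in WT cells, and which of those changes differed in cells without PERK.

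Libraries held 32454257 to 37178107 counts. All 12 fibroblast markers listed had at least 10 counts in every library, with summed levels of 14760 to 34860 CPM (counts scaled to a common library size). Marker sums in this paragraph use library totals alone, and the other CPM values use library sizes scaled by edgeR's TMM method. Epithelial (0.057 to 1.96), endothelial (0.238 to 4.71, with Emcn at 0) and muscle markers (0 to 0.653) stayed low, while leukocyte markers summed to 7.79 to 37.7 CPM and neural markers to 7.27 to 60.3 CPM, and the part of these lists in the results was not tested. Eif2ak3 was read at 30.3, 32.4 and 30.7 CPM in the WT DMSO libraries and at 9.37, 9.67 and 10.8 CPM in the Perk-null DMSO libraries, so the targeted gene was lower but still transcribed in the null cells. The mean log2 CPM of the members was lowest in the library numbered 3 in each of the 12 groups. Its member median lay 0.07 to 0.28 below the group's mean on the log2 scale, and in the same libraries other protein-coding genes with transcripts under 600 bases lay 0.03 to 0.17 below it.

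To show what a TOP mRNA looks like, 7 start regions are printed, chosen from the 13 of 60 members whose annotated start begins with a C and at least 4 pyrimidines, which the rest lack exactly there. Each runs from 20 bases before the annotated transcription start to 10 bases after it, taken from RefSeq on GRCm38.p6, with the pyrimidine run that begins at the annotated start in capitals. They lie at chr4:86857358-86857387 (minus strand, Rps6), chr16:33056462-33056491 (plus strand, Rpl35a), chr9:120571497-120571526 (plus strand, Rpl14), chr17:33955656-33955685 (minus strand, Rps18), chr2:180257359-180257388 (plus strand, Rps21), chr3:90213639-90213668 (minus strand, Rps27) and chr7:141447631-141447660 (plus strand, Rplp2).
Rps6: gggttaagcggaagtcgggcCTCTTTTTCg
Rpl35a: gcgcggcggggcttgccttcCTCTTTCCgc
Rpl14: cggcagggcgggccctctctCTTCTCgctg
Rps18: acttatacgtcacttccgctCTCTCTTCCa
Rps21: gcacttaccgaggacccgccCTCCTgccca
Rps27: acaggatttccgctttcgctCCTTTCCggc
Rplp2: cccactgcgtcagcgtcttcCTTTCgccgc
Of the 60 members with a RefSeq start region, 13 (21.7%) had a C followed by at least 4 pyrimidines exactly at the annotated start, against 3.01% of all 27025 start regions. A run of at least 7 pyrimidines within 30 bases of the start on the transcribed strand was found in 61.7% of the members and in 29.7% of all. The sequence CCGGAAGT, which holds the core bound by ETS-family factors, occurred on either strand between 250 bases before and 50 bases after the start in 20% of the members and in 4.31% of all. CTCTTT was found in 46.7% and 25.6% of these regions and CTTTCC in 51.7% and 29.3%, in the same order, and both can overlap the pyrimidine runs. These matches describe the annotated windows and were not compared with the responses.

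Levels per kilobase of transcript, averaged over all 36 libraries, spanned a wide range, although ribosomes hold these proteins in fixed proportions. They ran from 4.57 CPM per kilobase for Rpl38 to 2753 for Rpl8, with medians of 81.3 for the large and 144 for the small subunit. Rpl8, Rps2 (1749), Rpl4 (1660) and Rplp1 (1475) were among the highest levels, and Rps29 (8.64), Rpl28 (8.66) and Rpl36a (9.66) joined Rpl38 at the low end. Many members have processed copies elsewhere in the genome, and in the GENCODE M21 transcripts a median of 54.4% of a member's 50-base windows also occurred in another gene. Across the 80 members the level per kilobase and this share had a Spearman rho of -0.26, a description over genes that share these libraries. How reads that match several copies were assigned is not given in the sources used here, so a member's level can be a lower limit.

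Rps27, a zinc-finger protein of the small subunit, shows how much a copy can hold. The gene Rps27rt is a copy of Rps27 without introns, and their coding sequences were identical over all 252 bases, whereas the paralogue Rps27l differs. The first 60 coding bases are printed for these 3 genes, with the bases at which Rps27l differs from Rps27 in capitals.
Rps27: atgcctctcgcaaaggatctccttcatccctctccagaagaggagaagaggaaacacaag
Rps27rt: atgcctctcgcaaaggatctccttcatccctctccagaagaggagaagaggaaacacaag
Rps27l: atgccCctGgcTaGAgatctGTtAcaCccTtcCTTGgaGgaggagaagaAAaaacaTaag
Rps27l differed at 18 of these 60 positions. In WT DMSO cells Rps27rt stood at 379 CPM on average and Rps27 at 10.1, a ratio of 37.5. The corresponding ratios were 25.8 for Rpl37rt over Rpl37, 41.1 for Rpl34-ps1 over Rpl34 and 4.46 for Rpl31-ps12 over Rpl31. Values for Rps27, Rpl34, Rpl31 and Rpl37 are therefore uncertain, and the copy is given beside them where it differed.

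Halofuginone lowered most ribosomal protein mRNAs in WT cells. Relative to DMSO, 69 of the 80 members fell and 4 rose by edgeR's quasi-likelihood test at an adjusted p under 0.05, where 33.4% of all 16065 genes tested fell and 34.7% rose. All 3 halofuginone libraries lay below all 3 DMSO libraries for 63 members, a count that was not made over all genes tested. The median log2 fold change was -0.65, against 0.00 over all genes tested, and was alike in the large (-0.65, 39 of 48 members lower) and small subunit (-0.64, 30 of 32 lower). Scaling by library size alone moved the median of all genes to -0.11 and that of the members to -0.78. Among the other comparisons it moved the all-gene median by more than 0.1 only for the genotype difference in the halofuginone response, from 0.00 to 0.10.

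Rpl41, the smallest ribosomal protein, fell furthest. It stood at 75.1, 81.7 and 66.9 CPM in the DMSO libraries and at 23.1, 22.0 and 16.9 CPM with halofuginone, a log2 change of -1.85 ± 0.21 (SE, edgeR adjusted p = 5.2e-09). The highest treated library lay well below the lowest control. Rpl37a, a zinc-finger protein of the large subunit, followed, from 24.8, 22.7 and 19.2 to 7.21, 6.51 and 7.03 CPM (-1.68 ± 0.13, edgeR adjusted p = 1.8e-12). Rpl11, which with Rpl5 binds 5S ribosomal RNA and the p53 regulator MDM2, went from 20.6, 22.5 and 14.4 to 7.18, 7.89 and 4.72 CPM (-1.54 ± 0.25, edgeR adjusted p = 2.5e-06). None of these groups overlapped.

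In the small subunit Rps25 and Rps21 had some of the largest falls. Rps25, used by several viral internal ribosome entry sites, fell from 161, 156 and 102 CPM to 60.5, 59.9 and 43.4 CPM (log2 change -1.35 ± 0.20). Rps21 fell from 240, 257 and 197 to 97.2, 101 and 75.5 CPM (-1.34 ± 0.19). Their edgeR adjusted p-values were 3.8e-07 and 3.5e-07, and in each the highest treated library lay below the lowest control. Rps15 (-1.30) and Rpl36a (-1.35) fell to a like extent.

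The stalk proteins Rplp0, Rplp1 and Rplp2, which recruit translation factors to the large subunit, fell by 0.66, 0.71 and 0.68 on the log2 scale, and Rpsa, the 40S protein also known as the laminin receptor, fell by 0.84. Rplp0 stood at 1318, 1257 and 1186 CPM in DMSO and at 829, 815 and 734 CPM with halofuginone, without overlap. Rps6, the substrate of the S6 kinases, fell by 0.28 (edgeR adjusted p = 0.0138), from 137, 133 and 114 to 117, 109 and 91.1 CPM, with the groups overlapping. Its call ended without halofuginone replicate 3 (adjusted p = 0.0615) or DMSO replicate 1 (0.0745). Rps27a, made as a fusion with ubiquitin, fell by 0.47 (edgeR adjusted p = 0.0408), a call that ended without halofuginone replicate 2 (0.0567) or 3 (0.162) or DMSO replicate 1 (0.0895) or 2 (0.201), and with an offset for transcript length (-0.09, 0.490). Rpl5 had a log2 change of -0.33 (edgeR adjusted p = 0.129).

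**Figure D1:**
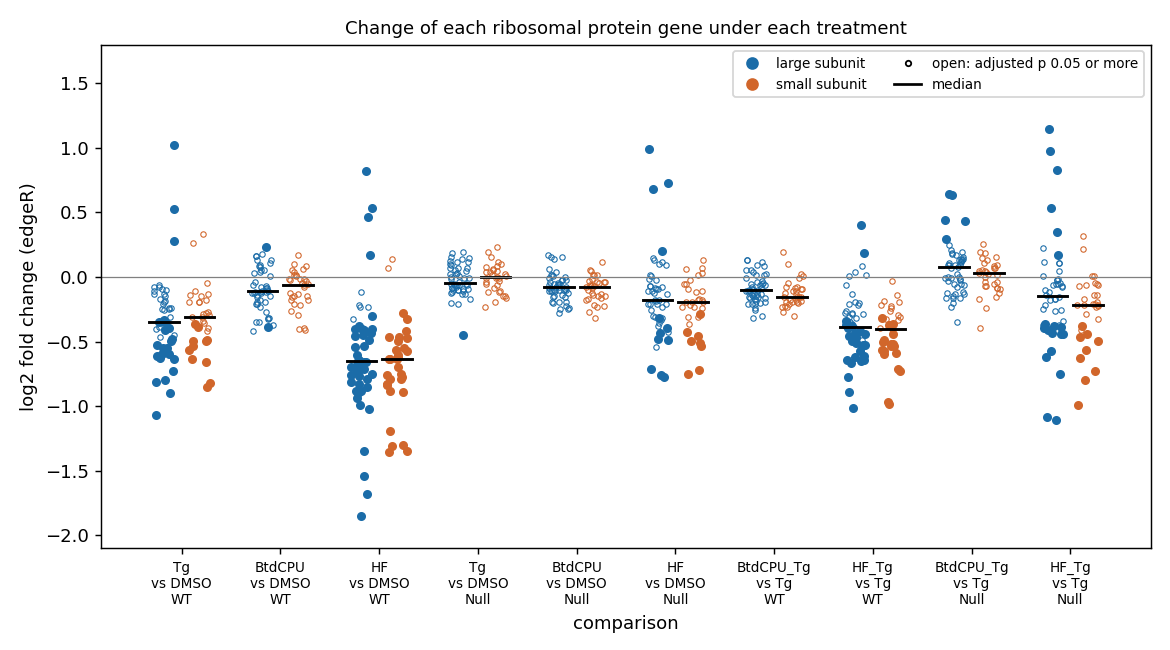
Log2 fold change of every member (vertical axis) in the 10 comparisons between treatments (horizontal axis), by subunit, with filled points for an edgeR adjusted p under 0.05, open points for the rest and black lines for subunit medians; HF is halofuginone, Tg thapsigargin and Null the Perk-null cells. Both subunit medians lie near -0.65 for halofuginone in WT cells and near 0 for BtdCPU and thapsigargin in Perk-null cells.

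A few members went against the rest. With halofuginone in WT cells Rpl12, which sits at the base of the stalk, rose from 65.2, 80.4 and 45.8 CPM to 107, 139 and 92.2 CPM (log2 change 0.82 ± 0.15, edgeR adjusted p = 1.2e-05). Rpl10a, a protein of the L1 stalk beside the exit site, rose from 70.6, 80.8 and 60.9 to 108, 118 and 82.4 CPM (0.54 ± 0.12, edgeR adjusted p = 0.000197). Rpl7l1, a paralogue of Rpl7 found in assembling large subunits, rose from 122.7, 119 and 118 to 175, 163 and 159 CPM (0.46 ± 0.10, edgeR adjusted p = 0.000103). All 3 were higher in every treated library than in any control. Rpl7, the parent of Rpl7l1, fell by 0.45, a call that ended without halofuginone replicate 3 (adjusted p = 0.144) or DMSO replicate 1 (0.117) or 2 (0.129), and with an offset for transcript length (-0.14, 0.345). Rpl3, a protein of the peptidyl transferase region, had a small rise of 0.17 (edgeR adjusted p = 0.0395) that 5 of the 6 fits with 1 library left out did not call, all but that without DMSO replicate 1 (0.0579 to 0.556), nor did scaling by library size alone (0.667).

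The 7 members without a call were Rpl4, Rpl5, Rpl24, Rpl28, Rpl36, Rps12 and Rps27, with log2 changes between -0.33 and 0.14. Rps27 was at 10.2, 12.4 and 7.71 CPM in DMSO and at 10.9, 12.2 and 10.3 CPM with halofuginone, so the groups overlapped, while its copy Rps27rt fell by 0.60 (edgeR adjusted p = 0.0194). With near-identical copies added to their genes, Rps27 had a log2 change of -0.57 (edgeR adjusted p = 0.0230). The paralogues Rps27l and Rpl22l1 fell as well, by 0.76 and 0.83, and Rpl22, an RNA-binding protein of the large subunit, fell by 0.72.

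**Figure D2:**
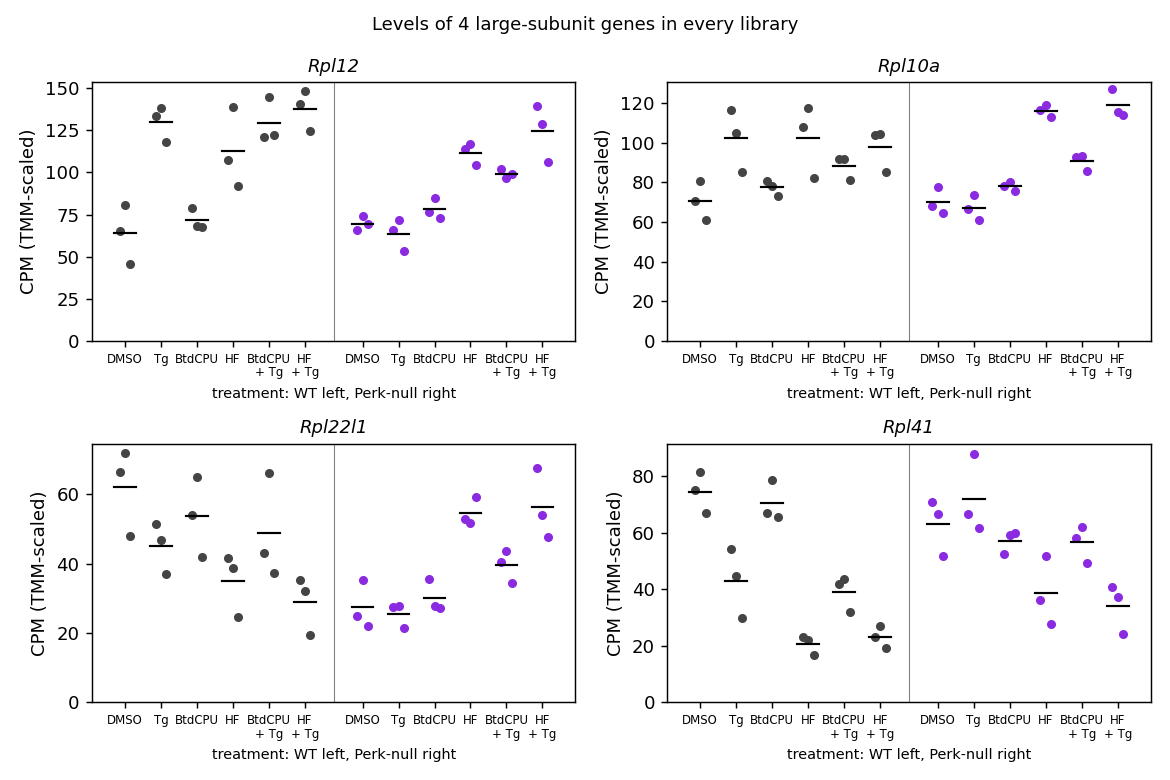
Level in CPM (vertical axis, starting at 0) of Rpl12, Rpl10a, Rpl22l1 and Rpl41 in all 36 libraries, with points for replicates, lines for group means and the 6 treatments of WT and Perk-null cells along the horizontal axis; HF is halofuginone and Tg thapsigargin. Rpl41 falls to between 16.9 and 23.1 CPM with halofuginone in WT cells, whereas Rpl12 and Rpl10a rise there and Rpl22l1 rises in the Perk-null panel, to between 51.7 and 59.3 CPM.

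Transcript length moved with this response. Members are short (median 751 bases, 61 of 80 under 1 kb) and other protein-coding genes tested have a median of 2791. With halofuginone in WT cells the 212 other protein-coding genes under 600 bases had a median log2 change of -0.41, those from 600 bases to under 1 kb -0.53, and those of 4 kb or more 0.29, while members had medians of -0.75 under 600 bases, -0.56 from 600 bases to under 1 kb and -0.60 from there to under 2 kb. In the range of 600 bases to under 1 kb 51.6% of the 730 other genes fell, against 30 of 33 members. With an offset for transcript length in the edgeR fit the members' median was -0.31, with 44 lower and 7 higher. The share of all genes called in that fit was not counted. Under the offset Rps6 turned to a log2 change of 0.11 (edgeR adjusted p = 0.178). Across the 80 members the change had a Spearman rho of 0.26 with transcript length and 0.50 with coding length, as a description over genes of the same libraries. The part of length in the result was not otherwise tested.

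**Figure D3:**
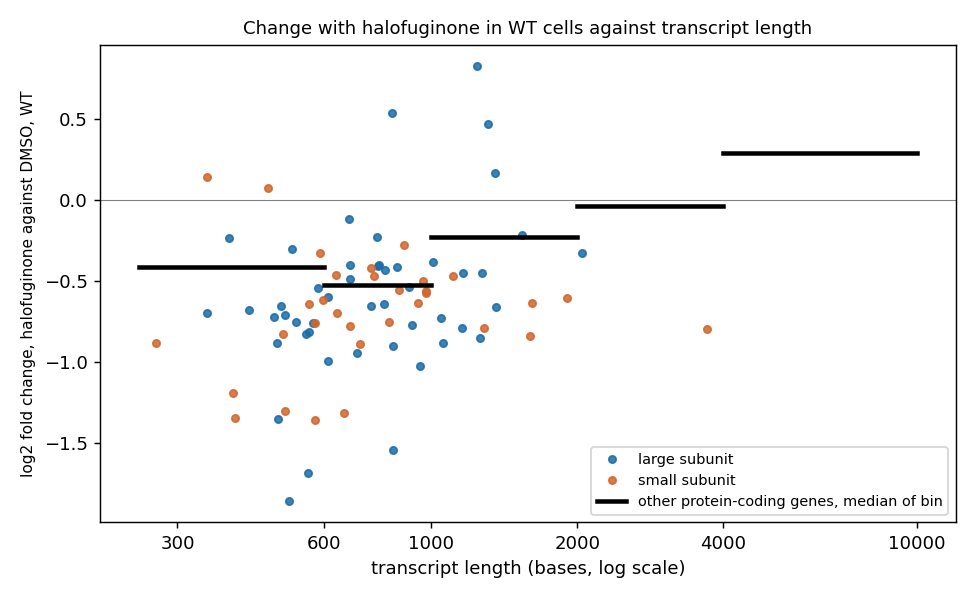
Log2 fold change with halofuginone in WT cells (vertical axis) against transcript length in bases (log-scaled horizontal axis) for the 80 members by subunit, with black lines for the median of other protein-coding genes in 5 length ranges. Other genes rise from -0.41 and -0.53 in the shortest ranges to 0.29 at 4 kb or more, and most members lie below the line of their range.

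Thapsigargin lowered a smaller set in WT cells. Relative to DMSO, 31 members fell and 3 rose, against 22.7% lower and 24.9% higher among all genes tested, with a median log2 change of -0.34 (all genes 0.02). The median was -0.20 without thapsigargin replicate 3 and -0.19 with an offset for transcript length. The falls took in 20 large-subunit and 11 small-subunit members. This comparison shares its DMSO libraries with that of halofuginone, and the members that fell furthest had large falls there too: Rpl11 had -1.07 with thapsigargin and -1.54 with halofuginone, Rpl37a -0.90 and -1.68, Rps25 -0.85 and -1.35, and Rpl41 -0.80 and -1.85. Rps28, a small-subunit protein near the mRNA exit, fell from 7.51, 6.72 and 6.07 CPM to 4.05, 4.16 and 3.28 CPM (-0.82 ± 0.15, edgeR adjusted p = 3.3e-05), without overlap. Rps15 fell from 900, 844 and 727 to 580, 534 and 457 CPM (-0.65 ± 0.15, edgeR adjusted p = 0.00042).

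The 3 rises with thapsigargin in WT cells were Rpl12, Rpl10a and Rpl3. Rpl12 rose from 65.2, 80.4 and 45.8 to 134, 138 and 118 CPM (1.03 ± 0.15, edgeR adjusted p = 9.8e-07), so that the lowest treated library lay above the highest control. Rpl10a rose to 116, 105 and 85.3 CPM (0.53 ± 0.12) and Rpl3 from 277, 268 and 253 to 342, 295 and 335 CPM (0.28 ± 0.07), both without overlap. The call of Rpl3 ended with the libraries numbered 3 left out (edgeR adjusted p = 0.125) and without a filter on low counts (0.112). Without that filter Rpl3 was also not called with BtdCPU in WT cells (0.243), with halofuginone in WT (0.579) or Perk-null cells (0.241), or for halofuginone over thapsigargin in WT (0.445) or Perk-null cells (0.206). Rps27l fell by 0.50, a call that ended without thapsigargin replicate 3 (edgeR adjusted p = 0.192) or DMSO replicate 1 (0.0789) or 2 (0.196). The total of 34 calls dropped to 17 without thapsigargin replicate 3 and to 22 without DMSO replicate 1 or without DMSO replicate 2. With replicate number as a block 58 members fell and 4 rose (median -0.34), and the share of all genes called in that fit was not counted.

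BtdCPU left the members near their DMSO levels in WT cells. Only Rpl3 was called higher (0.23 ± 0.07, edgeR adjusted p = 0.0193) and only Rpl7l1 lower (-0.39 ± 0.10, edgeR adjusted p = 0.00405), against 12.9% of all genes higher and 9.31% lower. Rpl3 stood at 330, 304 and 303 CPM with BtdCPU, above all DMSO libraries, and Rpl7l1 at 87.0, 107 and 80.8 CPM, below all of them. The count of 2 became 8 without BtdCPU replicate 2, 6 without DMSO replicate 3, and 1 without BtdCPU replicate 1, BtdCPU replicate 3 or DMSO replicate 2. The call of Rpl3 ended without BtdCPU replicate 1 or DMSO replicate 2 or 3 (adjusted p 0.0519 to 0.138), and that of Rpl7l1 without BtdCPU replicate 3 (0.0559). The median log2 change was -0.10, and it was 0.11 with an offset for transcript length, so its sign depended on that choice.

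The share of all counts that fell on the members was 2.53 ± 0.34% (SD, n = 3) in WT DMSO libraries, 2.40 ± 0.33% with BtdCPU, 2.18 ± 0.36% with thapsigargin and 1.59 ± 0.27% with halofuginone. With thapsigargin added it was 2.02 ± 0.29% for BtdCPU and 1.64 ± 0.21% for halofuginone. In Perk-null cells the 6 group means lay between 2.15% and 2.45%. The halofuginone libraries of WT cells (1.28% to 1.77%) did not overlap their controls (2.16% to 2.81%). Counts of the mitochondrial genome moved too, from 4.23% of all counts in WT DMSO to 2.52% with halofuginone, and leaving them out gave 2.65 ± 0.37% against 1.63 ± 0.28% for the members. In exact two-sided permutation tests of 3 against 3 libraries the smallest possible p is 0.1, which halofuginone in WT cells reached (0.367 after adjustment over 33 tests), so no test of these shares could pass 0.05. In bulk samples fewer cells making much of an mRNA and less of it per cell cannot be told apart.

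**Figure D4:**
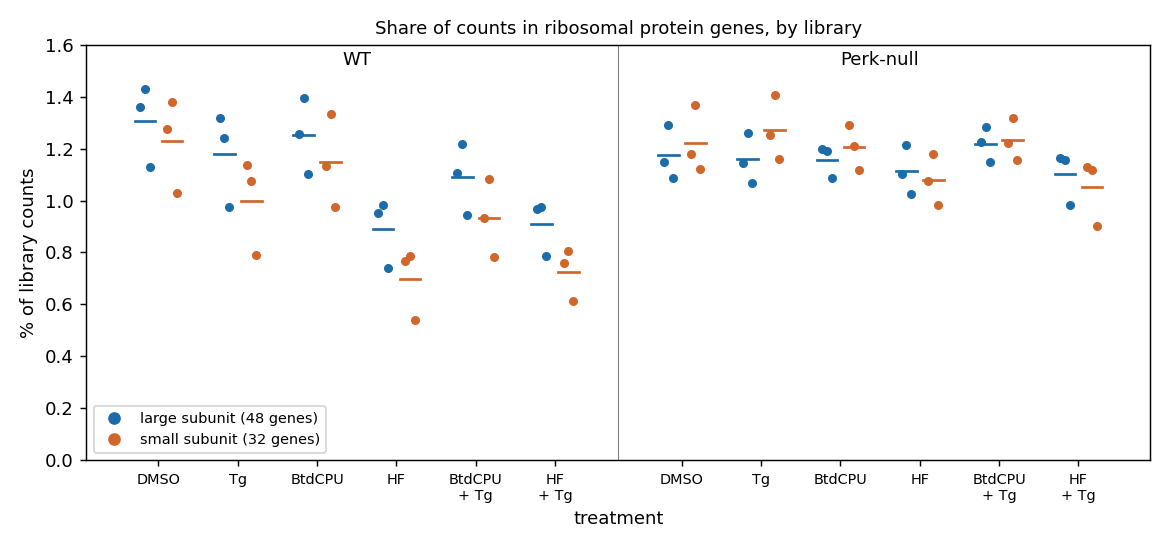
Percentage of each library's counts on large-subunit (48 genes) and small-subunit members (32 genes), on a vertical axis from 0, for the 12 groups along the horizontal axis, with points for replicates and lines for means; HF is halofuginone and Tg thapsigargin. The WT groups with halofuginone are lowest, and the small-subunit share lies further below the large-subunit share there than in WT DMSO.

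The balance of the subunits differed between groups by this measure. The summed CPM of the large subunit divided by that of the small was 1.07 ± 0.03 in WT DMSO libraries, 1.18 ± 0.05 with thapsigargin and 1.29 ± 0.07 with halofuginone, and neither treated group overlapped DMSO. In Perk-null cells it was 0.962 ± 0.015 in DMSO, 0.911 ± 0.013 with thapsigargin and 1.03 ± 0.01 with halofuginone, again without overlap. For each of these comparisons the exact two-sided permutation p was 0.1, the smallest that 3 against 3 can give (0.367 after adjustment). A few abundant genes weigh in such sums: the 5 members with the most counts, Rpl4, Rpl8 and Rps2 among them, held 40.5% to 45.7% of the members' CPM, as group means. Without these 5 genes the ratio was 1.02 in WT DMSO and 1.24 with halofuginone, but 0.964 and 0.962 in Perk-null DMSO and thapsigargin libraries. Giving each gene equal weight, the mean log2 CPM of the large minus that of the small subunit was -1.12 to -1.06 in WT DMSO. It was -1.02 to -0.96 with halofuginone, also without overlap, while the medians of log2 change were near -0.65 in both subunits. With thapsigargin in WT cells this difference was -1.099 to -1.077, overlapping DMSO. In Perk-null cells it was -1.185 to -1.076 in DMSO, -1.165 to -1.117 with thapsigargin and -1.085 to -1.027 with halofuginone, each overlapping DMSO.

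Without any stressor, Perk-null cells differed from WT cells in single members rather than in the family. In DMSO 12 members were higher and 15 lower in Perk-null cells, against 24.6% and 24.9% of all genes, with a median log2 difference of -0.02 (0.04 with library-size scaling alone, so the sign of the family median is not fixed). The large subunit had 4 higher and 11 lower, and the small subunit 8 higher and 4 lower. Rpl35a, a large-subunit protein mutated in some cases of Diamond-Blackfan anemia, stood at 3.17, 3.68 and 2.29 CPM in WT and at 64.4, 75.3 and 56.2 CPM in Perk-null cells, a log2 difference of 4.42 ± 0.19 (edgeR adjusted p = 1.3e-18). Low Rpl35a was seen in all 18 WT libraries (1.28 to 3.68 CPM) and high Rpl35a in all 18 Perk-null libraries (46.0 to 75.3 CPM), the widest range of any member. Rpl29, a heparin-binding protein of the large subunit, went the other way, from 236, 217 and 228 CPM in WT to 59.6, 54.8 and 56.9 CPM (-1.99 ± 0.11, edgeR adjusted p = 9.4e-16).

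Rpl3 was lower in Perk-null cells as well, at 120, 125 and 119 CPM against 277, 268 and 253 (log2 difference -1.14 ± 0.07, edgeR adjusted p = 2.2e-14). Rps3a1, a small-subunit protein near the mRNA exit, was at 72.7, 78.8 and 65.6 CPM against 195, 209 and 153 (-1.36 ± 0.19, edgeR adjusted p = 5.9e-07). The paralogues Rps27l (-1.22), a p53 target, and Rpl22l1 (-1.18) were lower, whereas Rpl7l1 (0.75) was higher. Rps18 was higher (0.84 ± 0.18), at 310, 365 and 269 CPM against 193, 197 and 137, as was Rps2 (0.57 ± 0.14). Rps27 (0.82) and Rpl34 (0.67) were called higher, yet with near-identical copies added their adjusted p rose to 0.839 and 0.925. Rplp0 (-0.69) was lower in all 3 libraries, while calls of Rpsa (-0.47) and Rpl7 (-0.54) ended in 4 of 6 fits each without 1 library, namely DMSO replicate 1 or 2 of WT or 1 or 3 of Perk-null cells (adjusted p 0.0540 to 0.166 and 0.0658 to 0.0779). The 2 genotypes may also differ in clone, which the labels do not give, so clone and genotype cannot be told apart.

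Perk-null cells showed little change of these genes with thapsigargin or BtdCPU. With thapsigargin no member rose and only Rpl7l1 fell, from 207, 213 and 186 to 156, 155 and 133 CPM (-0.45 ± 0.10, edgeR adjusted p = 0.000612), against 15.2% of all genes higher and 12.7% lower. With BtdCPU edgeR called no member (background 2.55% higher and 1.04% lower), 1 member had an unadjusted p under 0.05, and DESeq2 called 0. With halofuginone 16 members fell and 4 rose (background 21% and 21.2%), with a median of -0.19, so the share of falls was near that of all genes. The count of 20 calls was 10 without halofuginone replicate 3 and 11 without DMSO replicate 2, and the median -0.11 and -0.09 in the same order. With replicate number as a block 34 members fell and 4 rose (median -0.18), and the share of all genes called in that fit was not counted.

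The falls with halofuginone in Perk-null cells can be set beside those in WT cells. All 16 were also called in WT cells, where they made up 23.2% of the 69 falls, and the 2 comparisons share no library. Since 69 of the 80 members fell in WT cells, most of any 16 members would be shared. Rpl37a fell from 15.8, 16.1 and 14.6 to 8.74, 10.5 and 7.93 CPM (-0.78 ± 0.13, edgeR adjusted p = 1.4e-05), and Rps15 from 628, 744 and 653 to 381, 498 and 352 CPM (-0.72 ± 0.15, edgeR adjusted p = 0.000169), both without overlap. Rpl41 (-0.71), Rpl11 (-0.76), Rps25 (-0.75) and Rps10 (-0.54) fell too, of which Rpl41 lost its call without halofuginone replicate 3 (edgeR adjusted p = 0.0687) and Rpl11 without that library (0.113) or DMSO replicate 2 (0.0627). Rpl10a (0.73), Rpl12 (0.68) and Rpl3 (0.20) rose in both genotypes, though the call of Rpl3 ended in 4 of 6 fits without 1 library, those without halofuginone replicate 1 or 2 or DMSO replicate 1 or 3 (0.0674 to 0.0834). Rpl22l1 was called in opposite directions: it rose from 24.9, 35.4 and 22.0 to 52.8, 51.7 and 59.3 CPM in Perk-null cells (0.99 ± 0.23, edgeR adjusted p = 0.000722) and fell from 66.6, 72.0 and 47.9 to 41.8, 38.8 and 24.5 CPM in WT cells.

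**Figure D5:**
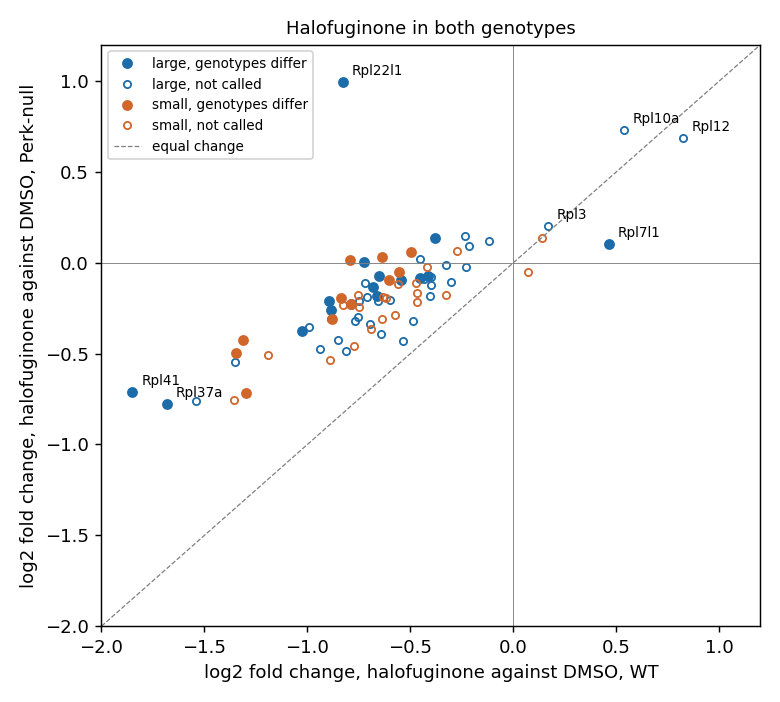
Log2 fold change with halofuginone against DMSO in Perk-null cells (vertical axis) against that in WT cells (horizontal axis) for the 80 members by subunit, with filled points where edgeR's interaction test called a difference between genotypes and a dashed line of equal change. Most members lie above the line, Rpl41 among them, and Rpl22l1 lies at -0.83 in WT and 0.99 in Perk-null cells.

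The difference between genotypes was tested as an interaction, the log2 response of Perk-null cells minus that of WT cells. For halofuginone it was positive for 26 members and negative for 1, against 17.5% and 17.5% of all genes, with a median of 0.45. Among the largest were those of Rpl22l1 (1.82 ± 0.32, edgeR adjusted p = 6.4e-05), Rpl41 (1.14 ± 0.29) and Rpl37a (0.91 ± 0.19) in the large and Rps21 (0.85 ± 0.27) and Rps20 (0.81 ± 0.29) in the small subunit. Rpl22l1 was called in opposite directions, and the other 4 fell less or were not called in Perk-null cells, Rps21 for instance going from 338, 351 and 242 to 218, 244 and 198 CPM there, with slight overlap. The count of 27 was sensitive to single libraries: 9 without WT DMSO replicate 1 or Perk-null halofuginone replicate 2, 10 without WT halofuginone replicate 3, 14 without WT DMSO replicate 2, 12 without Perk-null DMSO replicate 1 and 41 without WT DMSO replicate 3. With an offset for transcript length 8 members were called and the median was 0.14. The negative interaction of Rpl7l1 (-0.36) was called in none of 12 fits without 1 library (edgeR adjusted p 0.0537 to 0.177), and that of Rps20 was lost in 5 of 12, those without WT halofuginone replicate 3, WT DMSO replicate 1 or 2, Perk-null halofuginone replicate 2 or Perk-null DMSO replicate 3 (0.0554 to 0.0968).

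For thapsigargin the interaction was positive for 16 members and negative for 3, against 19.5% and 18.6% of all genes, so the positive share was near that of all genes. Rpl12 (-1.16 ± 0.21, edgeR adjusted p = 4.3e-05) and Rpl10a (-0.59 ± 0.17) had negative values. In Perk-null cells Rpl12 stood at 65.6, 73.9 and 69.1 CPM in DMSO and at 66.1, 71.5 and 53.2 CPM with thapsigargin, overlapping. Rpl11 (1.16 ± 0.34), Rpl37a (1.02 ± 0.18), Rpl41 (0.99 ± 0.29), Rps21 (0.80), Rps25 (0.77) and Rps28 (0.77) were positive, as was Rpl39 (0.88). With an offset for transcript length Rps28 had 0.28 (edgeR adjusted p = 0.332) and was not called. The call of Rps25 ended in 6 of 12 fits without 1 library (adjusted p 0.0564 to 0.0888), those without WT DMSO replicate 1 or 2, WT thapsigargin replicate 3, Perk-null DMSO replicate 1 or 3 or Perk-null thapsigargin replicate 2. That of Rps21 ended in 4 (0.0513 to 0.0787), those without WT thapsigargin replicate 3, WT DMSO replicate 2, Perk-null thapsigargin replicate 2 or Perk-null DMSO replicate 3. The negative call of Rpl7l1 (-0.35) ended in 8 of 12 (0.0590 to 0.143), all but those without WT thapsigargin replicate 3, Perk-null thapsigargin replicate 1 or 2 or Perk-null DMSO replicate 3. The count of 19 was 9 without WT thapsigargin replicate 3 or Perk-null thapsigargin replicate 2, 10 without WT DMSO replicate 1 or Perk-null DMSO replicate 3, 11 without Perk-null DMSO replicate 1 and 12 without WT DMSO replicate 2. For BtdCPU edgeR called no interaction (background 0.0373% positive and 0.162% negative), 1 member had an unadjusted p under 0.05 and DESeq2 called 0.

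Halofuginone also lowered many members when thapsigargin was given with it. Against thapsigargin alone, 43 members fell and 2 rose in WT cells, where 22.5% of all genes fell and 22.8% rose, with a median of -0.40 and with 25 large-subunit and 18 small-subunit members lower. Rps21 fell from 182, 187 and 101 to 93.9, 80.3 and 62.9 CPM (-0.99 ± 0.19, edgeR adjusted p = 9.7e-05). Rpl36a fell from 3.84, 4.97 and 3.50 to 2.25, 1.98 and 1.87 CPM (-1.01 ± 0.26, edgeR adjusted p = 0.00168). In each of these the groups were apart. Rpl7l1 rose by 0.40 to 153, 153 and 138 CPM, and Rpl3 by 0.19, a call that ended without replicate 1 or 2 of the combination or thapsigargin replicate 2 (adjusted p 0.0893 to 0.307). The replicate numbers paired these samples, and with the replicate block 63 members fell and 2 rose. The share of all genes called was counted in the main fit alone. The 45 calls became 20 without thapsigargin replicate 1 and 24 without replicate 3 of the combination, and the median was -0.16 with an offset for transcript length, under which 29 members were called.

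In Perk-null cells, halofuginone with thapsigargin lowered 22 members and raised 6 against thapsigargin alone (background 27.5% and 25.2%), a share of falls equal to that of all genes. Of these 22, 18 had also fallen in WT cells (81.8% of the Perk-null falls and 41.9% of the WT falls), where 43 of 80 members fell, and no library is shared. Rpl37a fell from 17.2, 17.6 and 15.7 to 8.87, 7.61 and 6.94 CPM (-1.11 ± 0.13, edgeR adjusted p = 2.0e-08), and Rpl41 from 66.7, 88.0 and 61.7 to 40.8, 37.2 and 24.1 CPM (-1.08 ± 0.21, edgeR adjusted p = 5.1e-05). Rpl22l1 rose from 27.4, 27.8 and 21.3 to 67.7, 54.1 and 47.7 CPM (1.15 ± 0.23, edgeR adjusted p = 9.7e-05), above every library with thapsigargin alone. Rpl12 (0.97 ± 0.15) and Rpl10a (0.83 ± 0.12) rose as well, and Rps27 had a log2 change of 0.32 that was -0.69 (edgeR adjusted p = 0.00936) with copies added. The 28 calls became 15 without replicate 3 of the combination and 18 without thapsigargin replicate 2.

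BtdCPU with thapsigargin, set against thapsigargin alone, gave few calls. In WT cells edgeR called no member (background 1.29% higher and 1.02% lower), 4 had an unadjusted p under 0.05 and DESeq2 called 1. The replicate numbers paired the samples of this comparison, and with the replicate block 8 members were called, all lower. Shares of all genes were counted in the main fit alone. In Perk-null cells 5 members rose and none fell (background 17.3% and 18.3%): Rpl12 (0.64 ± 0.15), Rpl22l1 (0.63 ± 0.23), Rpl14 (0.44 ± 0.11), Rpl10a (0.44 ± 0.12) and Rpl3 (0.29 ± 0.07). Rpl12 went from 66.1, 71.5 and 53.2 to 102, 96.6 and 99.3 CPM (edgeR adjusted p = 0.000875) without overlap. The call of Rpl22l1 ended without replicate 1 or 2 of the combination or without thapsigargin replicate 3 (adjusted p 0.0547 to 0.108). Rpl22 had a log2 change of -0.01, which was 0.24 (edgeR adjusted p = 0.0432) with an offset for transcript length, under which 28 members were called.

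The responses to the added compound differed between genotypes for few members. These interactions use the same thapsigargin libraries as the interaction for thapsigargin, where those libraries enter with the opposite sign. The results are therefore not independent of it. For BtdCPU over thapsigargin 4 interactions were positive and none negative (background 10.7% and 10.1%): Rpl12 (0.65 ± 0.21), Rpl10a (0.64 ± 0.17), Rpl8 (0.37 ± 0.13) and Rpl3 (0.33 ± 0.10). With library-size scaling alone only Rpl10a was called, and the count was 2 without WT thapsigargin replicate 1 and 8 without WT thapsigargin replicate 3 or WT replicate 1 of the combination. Leaving out Perk-null thapsigargin replicate 3 ended the call of Rpl12 (edgeR adjusted p = 0.0623), and leaving out WT thapsigargin replicate 1 that of Rpl3 (0.0660). The call of Rpl8 ended without WT replicate 3 or Perk-null replicate 2 of the combination, or without WT or Perk-null thapsigargin replicate 1 (0.0514 to 0.138).

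For halofuginone over thapsigargin 6 were positive and none negative (background 15.9% and 16.9%), among them Rpl22l1 (1.79 ± 0.33, edgeR adjusted p = 6.5e-05), Rpl10a (0.89 ± 0.17), Rpl12 (0.89 ± 0.21), Rpl14 (0.69 ± 0.16) and Rpl8 (0.38 ± 0.13). That count was 12 without WT thapsigargin replicate 3 or Perk-null thapsigargin replicate 2 and 11 without Perk-null replicate 3 of the combination. For halofuginone against DMSO the interactions of Rpl10a (0.19) and Rpl12 (-0.14) were not called. Those of Rpl22l1 (1.82), Rpl14 (0.51) and Rpl8 (0.34) were called positive there. Mean Rpl12 in WT cells was 130 CPM with thapsigargin and 138 CPM with the combination. In Perk-null cells these means were 63.6 and 125 CPM.

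Across the 12 group means most members moved together. The correlation of a member with the median of the others on the log2 CPM scale was above 0.8 for 48 of 80 members and below 0 for 9. Rpl23 (r = 0.98), Rpl36a (0.97) and Rpl37 (0.97) were most like the median, and Rpl12 (-0.78), Rpl3 (-0.60), Rpl10a (-0.59) and Rps12 (-0.50) least. These correlations describe 12 means that include both genotypes, and have no share of all genes beside them. Within WT cells alone Rpl29, at -0.27 over all groups, had 0.96. Rps3a1, Rps27l and Rpl4, also below 0 over all groups, had 0.96, 0.94 and 0.92 there. Rpl7l1 (-0.655 in WT and -0.756 in Perk-null cells) was negative within each genotype, as were Rpl12, Rpl3, Rpl10a and Rps12. Rps27, counted without its copy, had -0.537 and -0.817. The widest ranges of group means were those of Rpl35a (5.25 on the log2 scale), Rpl29 (2.27), Rps21 (2.22), Rpl11 (2.00) and Rpl41 (1.86). Transcripts annotated as targets of nonsense-mediated decay were listed in GENCODE M21 for 19 members, and retained-intron transcripts for 64. These counts have no share of all genes beside them, and their relation to the responses was not tested.

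Related genes were counted from lists chosen for their known roles. The 4 ribosomal protein genes outside the naming rule all fell with halofuginone in WT cells, among them Fau (-0.74), whose product is cut to give a 40S protein, Rack1 (-0.35), a scaffold on the 40S head listed as Gnb2l1, and Rpl36al (-0.69). Of 16 other mRNAs with a known TOP start 8 fell and none rose (median -0.31), among them the elongation factors Eef1a1 (-0.45) and Eef2 (-0.35), while Tpt1 had -0.35 (edgeR adjusted p = 0.0928) and Pabpc1 0.18 (0.186). Among 14 regulators of such mRNAs 6 rose and 2 fell, with Larp1 at 0.58 and Eif4ebp1, a translational repressor downstream of mTORC1, at 1.02. Its paralogue Eif4ebp2 went the other way, with group means of 33.3 CPM in DMSO and 14.3 CPM with halofuginone. Of 9 genes of ribosome collision and quality control 7 rose and none fell. Background shares for this comparison are those given above for halofuginone in WT cells.

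A list of 8 genes holds chaperones that escort single ribosomal proteins to the assembling ribosome and assembly factors. Of these, 4 rose with thapsigargin in WT cells, where 24.9% of all genes rose, and 6 fell in Perk-null cells (median -0.59), where 12.7% of all genes fell. The interaction was negative for 5 (median -1.01), against 18.6% of all genes. Values of some of them, chosen after their values were seen, follow. In Perk-null cells Ltv1, a factor of 40S assembly, had a log2 change of -0.76 with thapsigargin, Grwd1, the chaperone of Rpl3, -1.28, and Heatr3, which carries Rpl5 and Rpl11, -0.76. The same Perk-null thapsigargin libraries also serve as the reference for the rises that follow. Those rises are therefore not independent of the falls and the interaction above. Set against thapsigargin alone, 7 of the 8 rose with BtdCPU and 6 with halofuginone in Perk-null cells, with medians of 0.68 and 0.69, where 17.3% and 25.2% of all genes rose. Ltv1 rose by 0.91 and 1.49 in these comparisons and Pdcd2, the chaperone of Rps2, by 1.30 and 1.51. Aamp, another of the 8, went the other way, with Perk-null group means of 274 CPM in DMSO and 304 CPM with thapsigargin. Its means were 230 CPM with BtdCPU and thapsigargin and 173 CPM with halofuginone and thapsigargin.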

How the data were processed

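RNA-seq of 36 fibroblast libraries (12 groups of 3) was analysed from the authors' table. Its values are estimated counts (expected counts) per gene as deposited by the authors; library totals differ, so they were taken as not scaled between libraries. Per the labels' protocols, RNA was taken up with Zymo Quick-RNA kits and sequenced as strand-specific DNBSEQ libraries; both ribosomal RNA depletion and mRNA selection are mentioned. GRCm39 and DESeq appear in the submitters' processing notes without a stated role. Aligner, counting tool and annotation are not given in the sources used here, so how reads shared by copies were counted is unknown. Among all values, 50.6% are 0.025, taken as a placeholder for 0, and 2.69% of the others are not whole. Counts were rounded, 27 entries with names turned into dates were left out (0.206% to 0.278% of a library), and 86 entries under 39 repeated symbols were summed, which left 36856 symbols.

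Genes were tested with edgeR 4.0.16 (R 4.3.3, quasi-likelihood test, filterByExpr, TMM scaling, 12 group means, 24 residual degrees of freedom, common dispersion 0.0199) over 16065 genes, with Benjamini-Hochberg adjustment over all of them and a threshold of 0.05. CPM values use TMM-scaled library sizes, except the sums of cell type markers, which use library totals alone. The log2 CPM values have a prior count of 2. Shares and subunit ratios were compared by exact permutation tests (scipy 1.17.1, Python 3.11.15). The members and lists were chosen with earlier results of these data known. Named members are the fixed ones, paralogues beside their parents, up to 3 largest rises and falls per subunit and comparison among called members without overlap, and the 5 widest ranges. Replicates of a group differed by at least 9.66 in chi-square per degree of freedom, so none was counted as a duplicate. Deviations of same-numbered libraries from their group means correlated over 0.1 in every pair for the combinations against thapsigargin in WT cells. These correlations were 0.159 to 0.337 with BtdCPU and 0.162 to 0.308 with halofuginone. Other treatment comparisons of WT cells had 0.0408 to 0.287, and each library matched its own number best. Those of Perk-null cells had 0.0125 to 0.166, with the own number best in most pairs. Perk-null against WT cells in DMSO had -0.0131 to 0.141. The main fit holds no replicate term.

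Alternatives were library-size scaling, TMM without ribosomal protein rows, no filter on low counts, only the groups compared, DESeq2 1.42.0, a replicate block, each library left out, and 3 chosen after seeing the data: near-identical copies added, libraries numbered 3 left out, and an offset over transcript length. Start regions are from RefSeq (GRCm38.p6; 60 of 80 members matched), and transcript lengths, matched for 87.6% of genes tested, and coding sequences from GENCODE M21 (GRCm38). Scripts were tested on simulated data. A few genes are not reported here.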

Additional observations from a re-analysis of the deposited data

Results flagged for a closer look

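The responses of Perk-null and WT cells were compared by an interaction term in edgeR, and every member or count given here was noted because that test called a difference between the genotypes. The number of members that differed, of 80, was 19 for thapsigargin, 27 for halofuginone, 4 for BtdCPU over thapsigargin and 6 for halofuginone over thapsigargin. Among all genes tested 19.5%, 17.5%, 10.7% and 15.9% were called positive, in the same order. Negative calls made up 18.6%, 17.5%, 10.1% and 16.9% of them. The comparisons over thapsigargin share their thapsigargin libraries with the comparison for thapsigargin itself. Values are the log2 response of Perk-null cells minus that of WT cells.

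For thapsigargin the large-subunit members included Rpl10a (-0.59), Rpl11 (1.16), Rpl12 (-1.16), Rpl37a (1.02), Rpl39 (0.88), Rpl41 (0.99) and Rpl7l1 (-0.35), and the small-subunit members Rps21 (0.80), Rps25 (0.77) and Rps28 (0.77). For halofuginone they included Rpl22l1 (1.82), Rpl37a (0.91), Rpl41 (1.14), Rpl7l1 (-0.36), Rps20 (0.81) and Rps21 (0.85). For BtdCPU over thapsigargin they were Rpl10a (0.64), Rpl12 (0.65), Rpl3 (0.33) and Rpl8 (0.37), and for halofuginone over thapsigargin they included Rpl10a (0.89), Rpl12 (0.89), Rpl14 (0.69), Rpl22l1 (1.79) and Rpl8 (0.38). Those whose call rested on single libraries are named with the results.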

How the results depend on the processing

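Among 310 named values, DESeq2 kept direction and side of the threshold in 309, and leaving out 1 library did so in 2275 of 2436 fits, with 121 calls lost, 40 gained and 0 reversed. The total of 73 calls for halofuginone in WT cells moved by less than 1.5 times under every alternative run (62 to 75 with 1 library left out). It was lowest with the offset over transcript length, at 51 calls, of which 48 were shared with the main fit in direction. The falls went from 69 to 44 under that offset, the rises from 4 to 7, and the median from -0.65 to -0.31. With 1 library left out the counts ran from 17 to 45 for thapsigargin in WT cells (34 in all libraries), 1 to 8 for BtdCPU in WT cells (2), 10 to 23 for halofuginone in Perk-null cells (20), 20 to 60 and 15 to 26 for halofuginone over thapsigargin in WT (45) and Perk-null cells (28), and, for the genotype differences, 9 to 26 for thapsigargin (19), 9 to 41 for halofuginone (27), 2 to 8 for BtdCPU over thapsigargin (4) and 4 to 12 for halofuginone over thapsigargin (6). The replicate block gave 43 calls for Perk-null against WT cells (27), 62 for thapsigargin and 14 for BtdCPU in WT cells, 1 for BtdCPU (0) and 38 for halofuginone in Perk-null cells, 8 (0) and 12 (5) for BtdCPU over thapsigargin in WT and Perk-null cells, and 45, 62, 16 and 22 for the genotype differences in the order above; among named values it ended 0 calls and added 51. Fitting only the groups compared gave 22 for thapsigargin and 0 for BtdCPU in WT cells and 13 for BtdCPU over thapsigargin in Perk-null cells. Without a filter on low counts BtdCPU in WT cells had 5 calls, and the genotype differences 44 for halofuginone and 14 for halofuginone over thapsigargin. DESeq2 gave 4 for BtdCPU and 1 for BtdCPU over thapsigargin in WT cells, and library-size scaling gave 1 for the genotype difference in BtdCPU over thapsigargin. Of the alternatives chosen after seeing the data, leaving out the libraries numbered 3 gave 5 for BtdCPU in WT cells and 49 and 15 for the genotype differences in halofuginone and in halofuginone over thapsigargin. The offset over transcript length, fitted on 14071 genes, gave 15 for BtdCPU in WT cells, 4 for thapsigargin in Perk-null cells (1), 29 for halofuginone over thapsigargin in WT cells, 28 for BtdCPU over thapsigargin in Perk-null cells, and 8 each for the genotype differences in halofuginone and in BtdCPU over thapsigargin; Rps6 with halofuginone in WT cells turned to 0.11 and Rpl22, in the Perk-null comparison of BtdCPU over thapsigargin, to 0.24. With near-identical copies added, Rps27 turned to -0.57 with halofuginone in WT cells and to -0.69 with halofuginone over thapsigargin in Perk-null cells. Shares of all genes called were counted for the main fit alone, so counts under the alternatives have no such share beside them. The cause of these shifts was not tested.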
